A study of Homo sapiens with 8 samples.

Results

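H3K27ac, the acetylated form of histone H3 found at active promoters and enhancers, was profiled by ChIP-seq in A549 cells transfected with control siRNA or with siRNA against NRF2. A549 is a human lung adenocarcinoma line. The regions described here were those that every control library called and no NRF2 siRNA library called. Peaks of the 6 lists were merged wherever they overlapped by at least 1 bp, which gave 49186 merged regions. Of these, 1118 were called in all 3 control siRNA libraries and in 0 of the 3 NRF2 siRNA libraries, a share of 2.27%. The calls themselves chose these control-only regions, so their number and their strength in the control lists are a description and carry no test. The mirror set, called in all 3 NRF2 siRNA and 0 control libraries, held 408 regions, and 16845 regions were called in all 6 libraries.

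Cells of both groups were grown in DMEM with serum, transfected, and harvested 48 h later. Replicates 1, 2 and 3 of the control group received control siRNA, replicate 1 of the NRF2 siRNA group received siRNA 28, and its replicates 2 and 3 received siRNA 30. The 2 input libraries were not analysed here. All libraries come from 1 cell line, and the study describes the replicates as independent experiments, while the labels do not say whether they were separate cultures. The main p-values set 1 value per pair on the control side against 1 per pair on the NRF2 siRNA side, as defined below, without using the pairing. The paired p-values use the differences within pairs. Replicate 1 of both groups lacks a flow cell identifier in its peak names that the other 4 lists carry, and pair 1 is also the pair with siRNA 28, so sequencing run, depth and siRNA cannot be told apart in it. The control lists held 27941, 34747 and 41571 peaks and the NRF2 siRNA lists 23885, 34986 and 39108. The peak lists do not hold read depth. The study gives it per library, lower for both libraries of the first pair than for the rest, and it was not used here. A peak within 1 kb of a coding start was present for 9 to 11 of 12 epithelial marker genes in each library and for 1 or 2 of 14 leukocyte, fibroblast and endothelial markers, while mesenchymal markers ranged from 3 to 9 of 11.

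NRF2 is a transcription factor that induces genes of glutathione synthesis, thioredoxin reduction, NADPH supply and drug detoxification. It pairs with a small MAF protein and binds the antioxidant response element, a short DNA sequence. In most cells KEAP1 and CUL3 direct NRF2 to degradation, and in A549 cells a mutation of KEAP1 leaves it persistently active. Enhancers marked by H3K27ac lie mostly in introns and between genes, while the promoters of expressed genes carry the mark in nearly every cell type.

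To show what these regions look like, 100 bases are printed from each of the 6 control-only regions with the highest mean rank in the control lists, read from the plus strand of GRCh37 (hg19). Capitals mark a match to TGACNNNGC on either strand, the core of the antioxidant response element. Where a region held a match, the window was placed around the one nearest its middle, and otherwise at its middle, so these windows were chosen for the match. Across all 49154 merged regions on chromosomes, 5.03% held a match in the 100 bases at their middle, a share that cannot be set against windows placed on a match. A match is a description of the letters and not evidence of binding.
ADH7 (chr4:100368354-100368453, between genes): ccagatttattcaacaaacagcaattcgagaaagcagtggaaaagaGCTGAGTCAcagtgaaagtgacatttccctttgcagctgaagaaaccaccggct
SPDYA (chr2:29026768-29026867, region over exons of SPDYA and PPP1CB): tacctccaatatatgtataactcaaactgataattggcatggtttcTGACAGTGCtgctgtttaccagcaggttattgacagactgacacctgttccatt
TOR3A (chr1:179030077-179030176, intron of FAM20B): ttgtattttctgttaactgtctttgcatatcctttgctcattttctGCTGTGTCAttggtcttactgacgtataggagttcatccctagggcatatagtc
TACR1 (chr2:75466481-75466580, between genes): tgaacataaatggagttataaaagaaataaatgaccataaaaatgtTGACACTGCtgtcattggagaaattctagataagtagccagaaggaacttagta
GSTM5 (chr1:110262052-110262151, GSTM5 region): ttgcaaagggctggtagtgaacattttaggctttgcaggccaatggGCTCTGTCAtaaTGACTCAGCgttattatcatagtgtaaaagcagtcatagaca
FSCB (chr14:44176188-44176287, between genes, no match): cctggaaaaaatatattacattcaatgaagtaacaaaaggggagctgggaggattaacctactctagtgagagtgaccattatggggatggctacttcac
The GSTM5 window held 2 matches, 1 on each strand, and the whole FSCB region held 0. The SPDYA region overlapped an exon and the bodies of SPDYA and PPP1CB. Which gene that exon belongs to was not recorded, so the label of the SPDYA window means an exon within these bodies. The ADH7 and TOR3A regions held 3 and 4 matches over 3882 and 5201 bases.

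Strength was read as a percentile of fold enrichment within each control list, where 100 is the strongest peak of that list, because fold values of lists of different length were not compared. In control replicates 1, 2 and 3 the control-only regions had median percentiles of 30.0, 32.4 and 45.5. The interquartile ranges were 16.4 to 46.6, 17.4 to 50.3 and 31.8 to 59.5. These regions thus lay mostly in the lower part of each list. Their highest percentiles were 93.2, 92.0 and 92.4, so none reached the very top of any control list. Regions called in all 6 libraries had medians of 65.5, 73.2 and 78.4 in the same lists. Regions called in exactly 3 libraries drawn from both groups, of which there were 3329, had lower medians of 16.8, 16.3 and 25.4 where they were called.

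**Figure D1:**
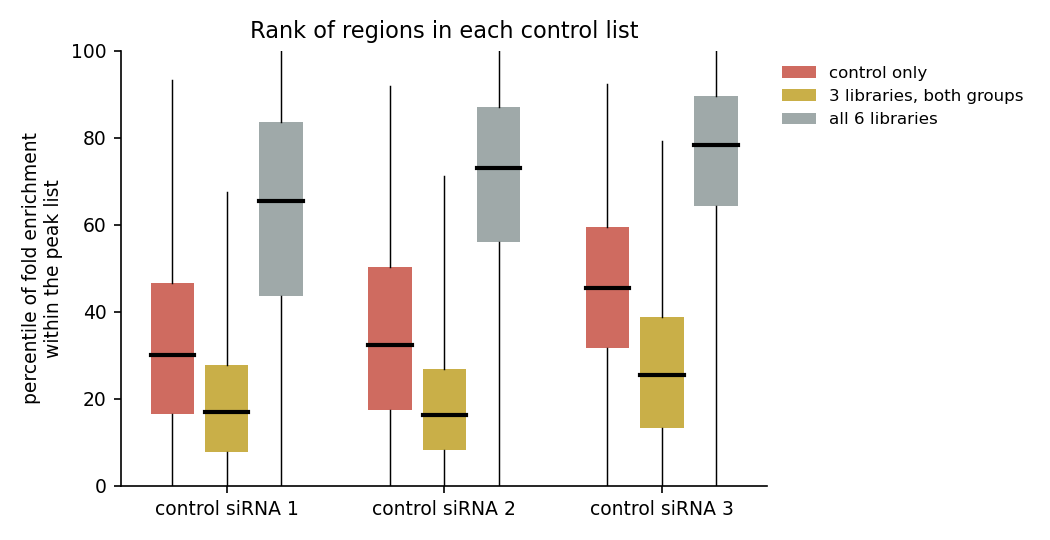
Percentile of fold enrichment (y axis) within each control siRNA peak list (x axis) for control-only regions, for regions called in 3 libraries of both groups and for regions called in all 6. Boxes span the interquartile range, black bars are medians and thin lines reach the lowest and highest values, over the regions that the list called. Control-only medians of 30.0, 32.4 and 45.5 lie between those of the other sets.

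Averaged over the 3 control lists, the percentile of a control-only region had a median of 35.0, an interquartile range of 24.1 to 49.6 and a full range of 0.228 to 91.6. A mean percentile of 75 or more was reached by 45 regions (4.03%), and 25 of the 1118 were at 75 or more in all 3 lists. At the other end, 297 had a mean under 25 and 104 were under 25 in all 3 lists. The 3 lists ranked the regions alike only in part. For a single region the highest and lowest of its 3 percentiles differed by 21.6 in the median. Across the 1118 regions, which share libraries and are not independent, the percentiles of replicates 2 and 3 correlated most (Pearson r = 0.772, Spearman rho = 0.754), while replicate 1 gave r = 0.617 with replicate 2 and r = 0.599 with replicate 3. Replicate 3 also had the smallest q-values, with median −log10 q of 2.70, 2.88 and 5.54 for the peaks in these regions in replicates 1, 2 and 3.

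The rule turns on whether a peak was called at all, so the regions next to the boundary were examined. In 167 control-only regions (14.9%) the weakest of the control peaks had a −log10 q under 1.5, and in 134 (11.99%) it was 5 or more. Just outside the rule, 722 regions were called in 3 control and 1 NRF2 siRNA library, and in 614 of them (85.0%) that library was NRF2 siRNA replicate 3, the longest list of its group. There their median percentile was 18.3. A further 1684 regions were called in 2 control and 0 NRF2 siRNA libraries, and 1184 of these (70.3%) were missed by control replicate 1, the shortest control list. The regions just outside the rule thus missed it mostly through those 2 libraries. Without control replicate 1 the number rose to 2315, and without NRF2 siRNA replicate 3 to 1737. When every list was cut to its 23885 peaks of highest fold enrichment, 1014 regions passed the rule, and 443 of the 1118 (39.6%) overlapped them.

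Control-only regions lay away from promoters. Of the 1116 on chromosomes, 53 (4.75%, Wilson 95% interval 3.65 to 6.16, counting error only) had the start of a protein-coding transcript inside them or within 1 kb, 157 (14.1%) overlapped a coding gene's exon, 457 (40.9%) lay in introns and 449 (40.2%) between genes. Over all merged regions the start share was 24.5% and the intron share 28.0%. Among regions called in all 6 libraries 43.1% were at a start and 16.7% in an intron. The 408 regions called only with NRF2 siRNA had a start share of 5.39%, with 32.6% in introns and 49.8% between genes. The regions called in 3 libraries of both groups had 17.3% at a start and 31.6% in introns. They have the same number of calls but not from like libraries. Of these 3329, control replicates 1 and 3 called 321 and 2967, and NRF2 siRNA replicate 3 called 3145. Of the control-only regions between coding genes, 27 (6.01%) had a noncoding transcript's start within 1 kb, against 11.5% over all merged regions. These are shares of regions chosen by their calls and were not tested against each other. With lists of equal length, 12.2% of control-only regions were at a start, 31.2% in an intron and 40.6% between genes, while 4.92% of the regions called only with NRF2 siRNA were at a start. At a q-value of at most 1e-05 the start shares of the same sets were 9.58% and 5.56%.

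**Figure D2:**
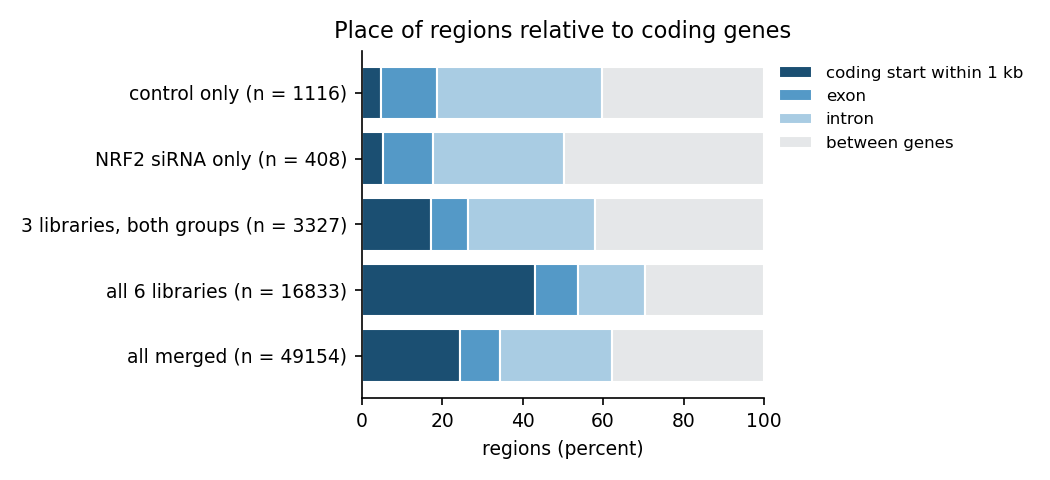
Share of regions (x axis, percent) at a coding start, over an exon, in an intron and between coding genes, for 5 sets of merged regions (y axis, with their number). The control-only bar holds 4.75% at a start and 40.9% in introns, against 43.1% and 16.7% for regions called in all 6 libraries.

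Because rank and place may be related, the start share was also read within bands of the mean control percentile, a breakdown chosen after the data were seen. For control-only regions it was 5.76% below percentile 25, 4.20% (of 547) from 25 to 50, 4.37% (of 229) from 50 to 75 and 6.67% (of 45) at 75 and above. For regions called in all 3 control and all 3 NRF2 siRNA libraries it was 9.65% of 508, 29.6% of 2780, 49.5% of 6165 and 45.1% of 7380 in the same bands. The share thus stayed low in control-only regions in every band, while in regions that all 6 libraries called it was lowest in the weakest band. With 2 NRF2 siRNA libraries the shares were 10.5%, 32.02%, 37.7% and, over 200 regions, 14.00%. With 1 NRF2 siRNA library they were 8.60%, 17.8%, 10.7% and 3.57%, the last over 28 regions, so neither of these sets rose through all bands.

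**Figure D3:**
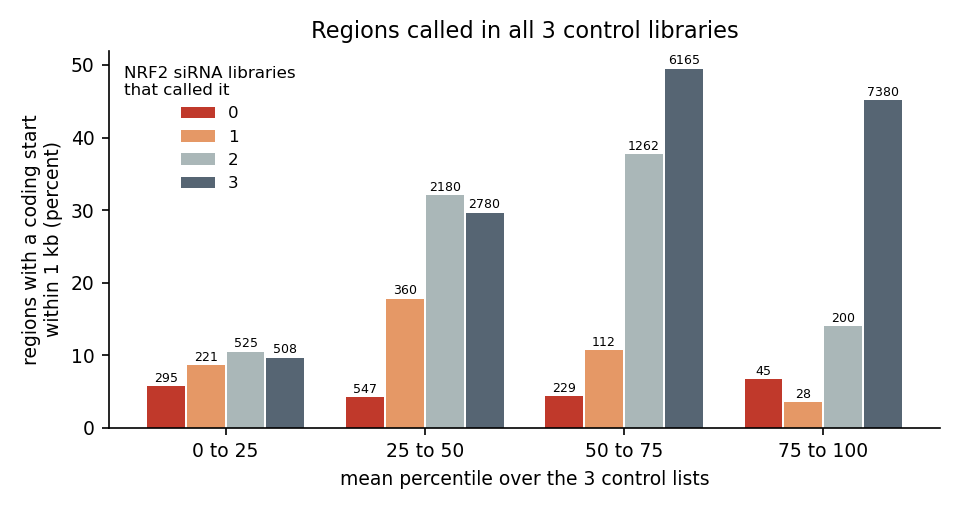
Share of regions with a coding start within 1 kb (y axis, percent) by mean percentile over the 3 control lists (x axis), for regions called in all 3 control libraries, coloured by how many NRF2 siRNA libraries also called them. Numbers above bars are regions. Control-only bars stay between 4.20% and 6.67%, while those for 3 NRF2 siRNA libraries run from 9.65% to 49.5%.

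The nearest coding start was a median of 28625 bp from a control-only region, with an interquartile range of 9794 to 80792 bp. The distance was 20549 bp over all merged regions, 6937 bp for regions called in all 6 libraries, 26695 bp for those called in 3 libraries of both groups and 45137 bp for those called only with NRF2 siRNA. Most control-only regions stood at an intermediate distance. A start lay inside 30 (2.69%) and within 1 kb of 23 more, 1 to 10 kb away for 229 (20.5%), 10 to 100 kb for 608 (54.5%), 100 to 500 kb for 185 (16.6%) and beyond 500 kb for 41 (3.67%). The farthest, on chromosome 2 with TMEFF2 as its nearest coding gene, was 1650160 bp away. Of the 1086 without a start inside, 478 (44.01%) lay upstream of the nearest start, against 46.8% over all merged regions. The regions had a median width of 1369 bp (interquartile range 1021.5 to 1909) and together covered 1.78 Mb. Median widths were 1410 bp for regions called in 3 libraries of both groups and 1649.5 bp for those called only with NRF2 siRNA. They were 1015 bp for regions called in 2 control and 0 NRF2 siRNA libraries, 1699 bp over all merged regions and 3561 bp for regions called in all 6. Narrow width was thus not particular to control-only regions.

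To ask whether place differed between the sides with the pair as the unit, the regions that a single pair called on 1 side were compared, whatever the other pairs did. A region was on the control side of a pair when its control library called it and its NRF2 siRNA library did not. Pairs 1, 2 and 3 had 7633, 5042 and 8439 regions on the control side and 3157, 5447 and 5440 on the NRF2 siRNA side. Control-side regions lay closer to coding starts in 3 of 3 pairs. Their median distances were 20311, 28833 and 27156 bp, against 36083, 37051 and 41383 bp on the NRF2 siRNA side, without overlap. The means were 25433 ± 4514 and 38172 ± 2822 bp (SD, n = 3), a difference of -12739 bp (two-sided exact permutation p = 0.1, Benjamini-Hochberg adjusted over 4 measures 0.2). The smallest p that 3 against 3 values allow is 0.1, so no difference here could pass 0.05. Both sides of a pair come from the same libraries, so the permuted values are not independent.

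The share between genes was lower on the control side in 3 of 3 pairs, again without overlap of the groups. It was 37.6%, 41.7% and 41.6% there against 43.998%, 47.8% and 48.3% on the NRF2 siRNA side. The means were 40.3 ± 2.34% and 46.7 ± 2.33% (SD, n = 3; exact permutation p = 0.1, adjusted 0.2). The start share was higher on the control side within each pair but overlapped between the groups. It was 20.3%, 11.6% and 10.9% against 13.3%, 8.94% and 4.19%, with means of 14.2 ± 5.26% and 8.82 ± 4.57% (SD, n = 3; exact permutation p = 0.3, adjusted 0.4). Intron shares were 30.9%, 36.2% and 38.1% against 32.3%, 34.3% and 38.8%. Their means differed by -0.14 percentage points (exact permutation p = 1), less than the spread between pairs. Paired by replicate number, the differences in distance, in the share between genes and at starts each gave an exact p of 0.25, the smallest 3 pairs allow. In the regions that all 3 pairs placed on 1 side the start shares were 4.75% and 5.39%, but 12.2% and 4.92% with lists of equal length, so the order of the sides depended on that setting.

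**Figure D4:**
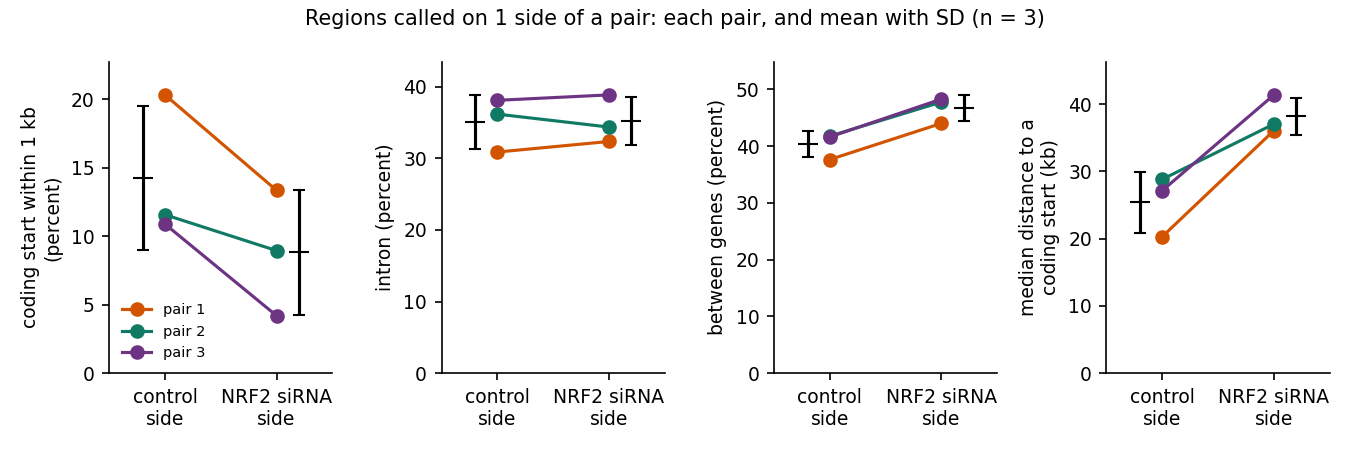
Regions called on 1 side of a pair: share at a coding start, in an intron and between genes (y axes, percent) and median distance to a coding start (y axis, kb). Points joined by a line are the 2 sides of 1 pair and black bars are the mean and SD over 3 pairs. Control-side distances of 20311 to 28833 bp lie below all NRF2 siRNA-side distances of 36083 to 41383 bp.

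The same call was then read in a pair whose calls took no part in the choice, although its peaks had helped to form the merged regions. Regions called in both control and neither NRF2 siRNA library of 2 pairs were described by their calls in the pair left out. With pair 1 left out, 2346 regions were chosen from the pairs with siRNA 30, and pair 1, with siRNA 28, called 1118 of them (47.7%) in its control alone, 7 in its NRF2 siRNA library alone, 37 in both and 1184 in neither. Of all regions called in at least 1 of the other 4 libraries, pair 1 called 14.5% in its control alone. With pair 2 left out, 1118 of 1674 (66.8%) were called in its control alone and 20 in its NRF2 siRNA library alone, against a background of 9.26%. With pair 3 left out the figures were 1118 of 1774 (63.0%) and 7, against 8.33%, and 614 were called in both. Where the pair left out called a chosen region on 1 side, that side was the control in 99.4%, 98.2% and 99.4% of regions, against 73.8%, 49.5% and 53.5% over the background regions of pairs 1, 2 and 3. The 1118 recurs because a chosen region called in the third control alone is by definition a control-only region. These shares are thus built from the set itself, and the background regions were not matched to the chosen ones for strength. The 3 choices also share libraries, so no p is given and the shares are a description. The mirror choice, added after the data were seen, gave 408 of 2149 (18.99%), 408 of 606 (67.3%) and 408 of 726 (56.2%) called only in the NRF2 siRNA library of pairs 1, 2 and 3, against 5.16%, 9.43% and 7.23% of the background regions.

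The strongest control-only region lay 9706 bp upstream of ADH7, an alcohol dehydrogenase that also oxidises retinol, at chr4:100366373-100370254. Its percentiles were 92.7, 92.0 and 90.2 in control replicates 1, 2 and 3, with a mean of 91.6 ± 1.27 (SD, n = 3). It stood in the top part of every control list, and the nearest region that any NRF2 siRNA library called began 9276 bp away. A region over an exon of GSTM5, a mu-class glutathione S-transferase, at chr1:110260740-110262950, had percentiles of 89.2, 89.7 and 87.9. No region called with NRF2 siRNA lay within 42952 bp of it. These are the members of the 20 highest that belong to a drug-metabolism gene list.

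Between them in rank stood regions near genes of varied function. The region with SPDYA, an activator of cyclin-dependent kinases, as its nearest gene (chr2:29024514-29027306) overlapped the neighbouring PPP1CB, the catalytic subunit of a protein phosphatase, and had percentiles of 93.1, 90.7 and 89.1. The one nearest to TOR3A, a torsin-family ATPase, lay in an intron of FAM20B, a xylose kinase of proteoglycan synthesis (chr1:179027485-179032685; 91.2, 90.5 and 90.5). The one 37757 bp upstream of TACR1, the substance P receptor (chr2:75464403-75468613), had 93.2, 89.4 and 88.1. No region called with NRF2 siRNA lay within 174934 bp of it, while another control-only region lay 89253 bp away. All 3 replicates ranked each of these near the same height.

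The other 15 of the 20 highest had mean percentiles from 81.0 to 88.5. They included regions that overlapped exons of MARCHF6 and UGGT1. MARCHF6, an endoplasmic reticulum ubiquitin ligase (chr5:10420273-10423024, exon), had a mean percentile of 86.8, and UGGT1, which senses misfolded glycoproteins (chr2:128943876-128945935, exon), had 86.0 ± 5.66 (SD, n = 3). A region 2067 bp upstream of DNAJA2, an Hsp40 co-chaperone (chr16:47009652-47011454), had 85.3, and one in NPEPPS, a cytosolic aminopeptidase (chr17:45687588-45689013, intron), had 82.6. Distance to a gene varied widely in this group. The region with FSCB, a sperm sheath protein gene, as its nearest lay 799183 bp from it on chromosome 14 (chr14:44175173-44177303; 85.6, 88.6 and 91.3), and the region nearest to ASPH, an aspartate hydroxylase, 161454 bp upstream (chr8:62788653-62790612; mean 81.0).

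A region 61686 bp upstream of PTHLH, the gene of parathyroid hormone-related protein (chr12:28187352-28189910), was lower in replicate 1 than in the others, with percentiles of 79.6, 90.5 and 92.4. A region called with NRF2 siRNA lay 519 bp from its edge. The zinc transporter gene SLC30A5 had a region 46807 bp upstream (mean 86.7, chr5:68341591-68343011), and the bicarbonate transporter family gene SLC4A11 had one in an intron of DNAAF9 (mean 84.3, chr20:3292291-3295386). Further introns were those of SIPA1L3 (86.3), FAM120A (84.6, nearest start FAM120AOS), DTNB, a dystrobrevin (84.5), and CATSPERB (83.1, nearest start PPP4R3A, a protein phosphatase 4 subunit). A region over an exon of MAML2, a NOTCH coactivator, had MTMR2, a lipid phosphatase, as its nearest start (81.3). Only PRR5, a subunit of mTOR complex 2, had its region at a coding start (chr22:45071984-45074206; 82.0, 76.8 and 87.8).

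Among the 53 control-only regions at a coding start, the 10 highest had mean percentiles from 52.2 to 82.2. After PRR5 came SH3TC1 (74.1, 80.5 and 80.7; chr4:8227051-8231140) and PRC1, which crosslinks microtubules in cytokinesis (69.2, 78.7 and 84.2; chr15:91522319-91523822). Both enclosed the start. The start lay 632 bp from the region in TNIP1, an inhibitor of NF-kappaB signalling (mean 65.4), 843 bp in DLG5, a scaffold protein of cell junctions (62.5), 220 bp in LY9, a lymphocyte surface receptor (59.6), and 121 bp in NCKAP5L (52.2), and it lay inside the region in PAQR5, a membrane progestin receptor (65.04), and LRP1B, a lipoprotein receptor-like protein (53.1). RSPH6A, a radial spoke protein of sperm flagella, stood out for its spread, with percentiles of 16.9, 82.0 and 79.9, so that replicate 1 ranked it far below the others. The starts used were those of every coding transcript, so some are alternative starts within a gene.

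The widest regions varied in rank. The widest control-only region, 6290 bp, lay 63810 bp downstream of the start of HHEX, a homeobox factor (chr10:94515599-94521888), with percentiles of 45.2, 49.7 and 56.6. The next, 6151 bp at a start of SFI1, a centrosome protein (chr22:31979653-31985803), had 76.7, 10.2 and 25.9, the replicates thus differing widely. Regions of 5559 bp upstream of TRH, thyrotropin-releasing hormone, and 5443 bp upstream of HSPB3, a small heat shock protein, had mean percentiles of 17.0 and 32.9. The region of 5370 bp in an intron of STXBP4 had 73.1.

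By the nearest coding start, the 1116 regions fell to 1019 different genes, of which 938 had 1 region, 69 had 2, 9 had 3 and 3 had 4 or more. Counting genes with a merged region within 100 kb of their start for which they are the nearest gene, 839 of 13778 (6.09%) had a control-only region. TBL1XR1, a subunit of the nuclear receptor corepressor complexes, had 5 of its 29 regions, spread over chr3:176069788-177391872. Of these 4 were between genes, upstream or downstream by 35405 to 680796 bp, and 1 lay in an intron. Their mean percentiles ran from 23.1 to 52.5. NEDD4L, a ubiquitin ligase that limits the epithelial sodium channel, had 4 of 26 on chromosome 18, with means of 28.9 to 59.5. These lay between genes, over an exon, in an intron and over a start. TFAP2A, a transcription factor of ectoderm and neural crest, had 4 of 21, all between genes and 6808 to 871336 bp away, with means of 21.9 to 34.6. Of the other regions of these 3 genes, 7, 7 and 9 were called in all 6 libraries. The genes were named for holding 4 or more control-only regions, and over all merged regions the control-only share was 2.27%.

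The gene lists were chosen with earlier results of these data known and are described by their counts. In 10 lists of redox and detoxification genes, 19 of the 135 genes with a region (14.1%, against 6.09% over all coding genes) had a control-only region, and 21 of their 473 regions (4.44%) were control-only, against 2.28% of regions over all coding genes. Of the same 473 regions 1 was called only with NRF2 siRNA (0.211%, against 0.732% over all coding genes). The other 12 lists had 17 of 179 genes (9.50%, also above 6.09%) and 17 of 760 regions (2.24%), with 9 called only with NRF2 siRNA. No test was made on these counts, and a gene with more regions has more chances to hold one.

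Among enzymes of glutathione and thioredoxin metabolism, 2 of 14 and 2 of 10 genes had a control-only region, beside 6.09% over all coding genes. GCLM and GCLC encode both subunits of glutamate-cysteine ligase, the first step of glutathione synthesis. The GCLM region lay 47831 bp upstream (chr1:94422843-94424599) with percentiles of 27.3, 22.01 and 42.3, and the GCLC region 16385 bp upstream (chr6:53498153-53499471) with 37.4, 8.42 and 12.7. Both ranked low in at least 1 list. The regions nearest to TXNRD1, thioredoxin reductase (chr12:104595226-104595824), and TXN2, mitochondrial thioredoxin (chr22:36830147-36831671), had mean percentiles of 13.0 and 21.9. RPIA, a pentose phosphate isomerase, was the 1 gene of 14 in NADPH supply, with 40.1 ± 3.92 (SD, n = 3) over an exon (chr2:89034811-89036609).

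Of the aldo-keto reductases, 3 of 10 genes had a control-only region (6.09% over all coding genes), all in the AKR1C cluster on chromosome 10. AKR1C1, AKR1C3 and AKR1C4 reduce steroids and reactive carbonyls. The region with AKR1C4 as its nearest gene (chr10:5313579-5315004, 74779 bp downstream of its start) had percentiles of 67.5, 64.5 and 76.5. The region over an exon of AKR1C1 (chr10:5010861-5012682) had 60.8, 52.4 and 52.1, and that in an intron of AKR1C3 (chr10:5081944-5084079) had 8.49, 17.4 and 40.9. AKR1C4 ranked in the upper part of each list, AKR1C1 nearer the middle and AKR1C3 in the lower part. Regions called with NRF2 siRNA were close by, 1175 bp from the AKR1C1 and 940 bp from the AKR1C3 region. Of the 63 aldo-keto reductase regions, 28 were called in all 6 libraries.

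Conjugation and oxidation enzymes held the strongest listed regions. Among glutathione S-transferases 2 of 15 genes had one, beside 6.09% over all coding genes. These were GSTM5, given above, and MGST3, a microsomal transferase (chr1:165619792-165621090, over an exon), with 83.3, 70.9 and 82.6. Among alcohol and aldehyde dehydrogenases 3 of 20 genes, beside the same 6.09%, had 4 regions. Beside ADH7, ALDH1A3, which makes retinoic acid, had a region 10317 bp upstream (chr15:101406470-101407602) with 50.6, 50.6 and 51.6. ALDH3A1, which oxidises lipid aldehydes, had 1 region upstream (chr17:19663672-19667102) with 24.2, 57.5 and 63.2. It had 1 more over an exon (chr17:19636702-19641397) with a mean of 31.6. Both ALDH3A1 regions were lower in replicate 1 than in replicate 3. In glucuronidation, regions near UGT1A8 and in the shared UGT1A locus (nearest start UGT1A3) had mean percentiles of 30.1 and 25.5. The AKR1C, GSTM and UGT1A genes have close copies of each other, so calls there are less certain.

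Among other listed genes of this kind, PTGR1, an NADPH-dependent reductase of lipid mediators (chr9:114375064-114376316), had a mean percentile of 31.4. SLC40A1, the iron exporter ferroportin (chr2:190398177-190400743), had 70.0 ± 5.69 (SD, n = 3). ABCC5, an efflux pump, had 2 regions with means of 66.8 and 20.2 (the first at chr3:183723497-183724970). A region over an exon of ABCC1, whose nearest coding start was that of ABCC6, had 23.3. The percentiles of these regions thus covered most of the range.

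In the circuit that controls NRF2, 3 of 11 genes had a control-only region, beside the same 6.09% over all coding genes. That at CUL3, the ubiquitin ligase scaffold that acts with KEAP1, enclosed a coding start (chr2:225433247-225435340) and ranked low, at 12.1, 12.9 and 24.8. BACH1, a repressor that competes with NRF2 for its sites, had an intronic region (chr21:30688192-30689350; mean 25.7). SQSTM1, the autophagy receptor p62, was nearest to a region over an exon of its neighbour MRNIP (chr5:179266321-179267426), with percentiles of 6.22, 28.1 and 40.6. Stress and differentiation factors of the C/EBP and AP-1 families had 3 of 16 genes, FOSL2 (31.6), ATF3 (16.7) and CEBPA (2.01, 2.16 and 41.4). The CEBPA region was near the bottom of lists 1 and 2 and mid-range in list 3.

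Most of the remaining lists gave single regions. Serine and one-carbon metabolism had PSAT1 (36.8) and MTHFD1 (32.0), epithelial identity CLDN4 (50.04), mesenchymal identity ZEB1 (58.7 ± 0.783, SD, n = 3), integrins and laminins LAMB1 (21.6, in LAMB4), cytokines IL1A (37.7), receptor tyrosine kinases and ligands IGF1R (26.8), FGFR1 (10.7) and TGFA (8.72), and ribosomal proteins RPS3 (17.7), each value a mean percentile. The 16 listed NOTCH pathway genes had 0 of the 67 regions nearest to them, and leukocyte, fibroblast and endothelial markers 0 of 26. The region over MAML2 was not counted there, because its nearest start was MTMR2, nor was 1 nearest to HEYL (58.3), a gene outside the list. At 2.28% of regions over all coding genes, little can be read from a 0 in lists of this size. Of the 123 integrin and laminin regions, 4 were called only with NRF2 siRNA and 1 was control-only. Over all coding genes these shares were 0.732% and 2.28%, and counts this small give no direction.

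Most control-only regions stood alone along the chromosomes. The median gap to the next one was 576830 bp, and 170 (15.2%) had another within 100 kb. The same share was 10.3% of the 408 regions called only with NRF2 siRNA and 31.03% of the 3329 called in 3 libraries of both groups, shares that depend on the size of the set. Chained at gaps of at most 100 kb, 948 stood alone, 152 formed 76 groups of 2 and 18 formed 6 groups of 3. Taking the merged regions in order, 32 runs of 2 and 1 run of 3 control-only regions had no other region between them. Without control replicate 1, which enlarges the set to 2315, the share within 100 kb was 25.4%.

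The shortest group of 3 spanned 14941 bp between genes (chr3:31398154-31413094), with STT3B, a catalytic subunit of oligosaccharyltransferase, the nearest gene at 161323 to 175235 bp. Its mean percentiles were 69.9, 41.9 and 43.95, and these 3 were among 4 merged regions in the span. The next lay at SH3BP5, a RAB11 exchange factor (chr3:15346356-15382118), with 1 region in an intron and 2 at coding starts and means of 39.7, 40.4 and 13.9. On chromosome 11 there was a group across PPFIA1 and CTTN, which encodes the actin-binding protein cortactin (chr11:70157516-70250051; 30.6 to 50.2), and another around MYEOV (chr11:69142212-69252820; 30.4 to 59.1). The group in SCN8A, a sodium channel gene (chr12:52025098-52168213), held some of the weakest regions, with means from 1.32 to 46.5. The 6th spanned CDK5RAP2 and MEGF9 (chr9:123332571-123499207), where 9 of 12 merged regions were not control-only.

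Most control-only regions had a region called with NRF2 siRNA within 50 kb. The nearest region called by any NRF2 siRNA library was a median of 16418 bp from a control-only region, within 1 kb for 23 (2.06%), within 5 kb for 227 (20.3%) and within 50 kb for 893 (79.9%). The nearest region called in all 6 libraries was a median of 34872 bp away. The mirror set had like values, with a median of 15304 bp to the nearest region called by a control library and 21.3% within 5 kb.

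Over chromosomes 1 to 22 and X, leaving out Y with its 32 merged regions, the share of merged regions that were control-only ran from 0.957% on chromosome 19 (14 of 1463) to 3.17% on chromosomes 21 (16 of 504) and 3 (102 of 3221), with 3.15% on chromosome 2 (132 of 4185). Chromosome 13 had 1.35% (15 of 1109). Chromosome 19, the lowest of these, also had the highest share of regions at a coding start, 52.2%. The share called only with NRF2 siRNA ran from 0.198% on chromosome 21 to 1.69% on chromosome 9, the former a single region of 504. Of 32 merged regions on unplaced contigs, 2 were control-only.

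**Figure D5:**
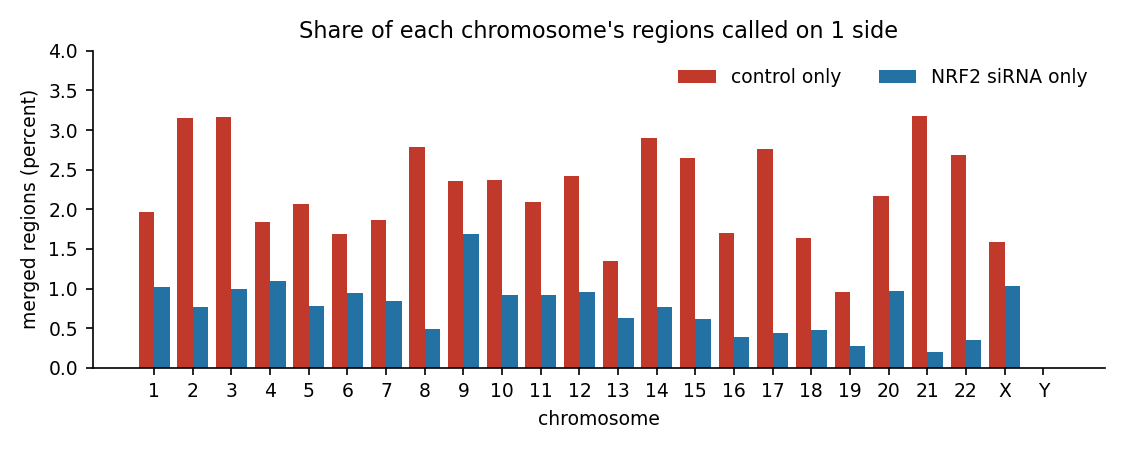
Share of each chromosome's merged regions (y axis, percent) called only in the 3 control libraries and only in the 3 NRF2 siRNA libraries, by chromosome (x axis). Among chromosomes 1 to 22 and X, control-only shares run from 0.957% on chromosome 19 to 3.17% on chromosomes 3 and 21.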

How the data were processed

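H3K27ac peak lists of 6 A549 libraries, 3 control siRNA and 3 NRF2 siRNA, were used. The authors aligned reads to hg19 with Bowtie2 (2.2.6), filtered alignments with SAMtools and called broad peaks in each library separately with MACS2 (2.1.0.20151222), per the labels and the study's methods. The deposited lists give, for each peak, a ratio (fold enrichment over background) and a q-value (as −log10). Which library served as background is not given in the sources used here. The lists hold no read counts. Depth, which the study gives per library, was not used and enters no interval.

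Peaks were merged at 1 bp overlap, and a region counted as called by each library with a peak inside it. Each region took its highest fold enrichment in a list, turned into a percentile within that list. Coding transcripts of GENCODE 44 lifted to GRCh37, without readthrough transcripts, gave starts, exons and introns. A region within 1 kb of a coding start counted as at a start, then as exon, intron or between genes. Exon means that the region overlapped an exon by any length, so it may also cover introns. All 24 chromosomes with peaks matched GRCh37 and 0 had a peak past its end. Shares have Wilson 95% intervals, which treat regions as independent and cover counting error only. Sides of single pairs were compared by exact two-sided permutation tests with Benjamini-Hochberg adjustment, using Python 3.11.15, scipy 1.17.1, numpy 2.4.6, pandas 2.3.3 and pysam 0.24.0. The merging, calling and nearest-start steps were tested on simulated data.

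Replicate numbers come from the sample titles. Deviations from the group mean correlated within each pair (r = 0.398, 0.199 and 0.363 over 32673 regions), and the numbers were used to pair the libraries. List length also rose with replicate number in both groups. Whether it gave these correlations was not tested.

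The regions, the 22 gene lists (346 genes) and the tests were chosen with earlier results of these data known. Named regions were the 20 of highest mean percentile, the 5 widest, the 10 highest at a coding start, groups chained at 100 kb (the 5 largest by rule, here 6 because all have 3 regions), genes nearest to 4 or more, and listed genes within 100 kb, up to 4 regions a list. Alternatives were a q-value of at most 1e-05, lists of equal length, merging up to 1 kb, peaks covering at least 25% of a region, other distances, and leaving out each library or pair. One listed gene's result is not reported here.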

Additional observations from a re-analysis of the deposited data

How the results depend on the processing

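Of the recomputed values, 88 stayed within their limits, 28 moved and 2 changed sign. At a q-value of at most 1e-05 there were 428 control-only regions, of which 9.58% were at a coding start, 32.5% in an intron and 7.94% within 100 kb of another, with a median distance of 23400 bp and a median percentile of 71.7. Of the 1118 regions, 134 (11.99%) overlapped these 428. With lists of equal length the start share was 12.2%, the intron share 31.2%, the distance 24724 bp, the percentile 51.7, the share within 100 kb 11.1% and the share called in the control alone by pair 1, left out, 55.9%. At the q-value cut and with lists of equal length, percentiles were still ranks in the uncut lists, so dropping weak peaks raises them by construction. With peaks covering at least 25% of a region the percentile was 37.5 and the share for pair 3, left out, 60.7%. Merging up to 1 kb moved none of these values, and 1094 of the 1118 regions (97.9%) overlapped its 1102. A start inside the region was found for 2.69%. Another control-only region lay within 50 kb of 7.87% and within 500 kb of 46.5%.

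Leaving out 1 library at a time, the number ran from 1155 to 2315, the start share from 4.25% to 7.61%, the intron share from 38.1% to 42.4%, the share between genes from 39.7% to 41.7%, the distance from 26216.5 to 30820 bp, the percentile from 27.9 to 34.8 and the share within 100 kb from 15.8% to 25.4%. The intron difference between the sides of single pairs, -0.14, was 0.53 without replicate 1 and 0.17 without replicate 3, and -1.12 without replicate 2. The replicate block left each difference as it was, for example 5.43 percentage points at a start and -6.35 between genes, with an exact p of 0.25 for both. No p could pass 0.05 with or without it. Under the other peak and merging settings the start difference was 5.49 to 15.2, and leaving out 1 pair it was 4.65 to 6.83. The distance difference kept its sign in each. Depth, not used here, limits how far a missing call can be read as less acetylation.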

Other observations

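Some genes below the limit of 4 regions also gathered several, and they were picked out after their values were seen. Over all merged regions the control-only share was 2.27%. KCNQ3, a potassium channel gene on chromosome 8, had 3 control-only regions among the 5 merged regions nearest to it. Of these 5, 0 were called in all 6 libraries. The KCNQ3 control-only regions lay in introns (mean percentiles 60.2 and 24.0) and between genes (6.01). PPARGC1A, a coactivator of mitochondrial genes, had 3 of 36, all between genes and 247971 to 620067 bp from its start, and IGFBP3, an insulin-like growth factor binding protein, had 3 of 34, all upstream.

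Pairs of control-only regions lay at further genes, again picked out after their values were seen. In NCOA7, a pair of intronic regions within 29372 bp had mean percentiles of 38.5 and 42.8. Near NAMPT, which makes an NAD precursor, a pair between genes had 43.0 and 79.2. At MAT1A, a methionine adenosyltransferase gene, 1 region at a coding start and 1 over an exon had 11.3 and 51.7.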
